A study of Homo sapiens with 12 samples.

Results

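The 10 genes described here, PEG10, SGCE, PEG3, MEST, H19, IGF2, KCNQ1OT1, CDKN1C, NAP1L5 and SNRPN, are imprinted genes, taken by symbol from the 60609 genes counted in an RNA-seq series of K562 cells. PEG10 was chosen by its rise in these counts after treatment (its log2 fold change), and the others were listed to see whether its neighbour SGCE and other imprinted genes moved with it. K562 is a human chronic myeloid leukemia line of erythroid character, and 1 cell line is the whole model. The cells were treated for 48 h with the solvent DMSO (3 libraries) or with 10 µM FT671 (3 libraries), an inhibitor of the deubiquitinase USP7. The libraries come from separate experiments. USP7 is a subunit of the Polycomb complex PRC1.1, and the comparison asked which transcripts change when its enzyme activity is blocked. The series also holds 6 ChIP-seq libraries of histone marks, which were not analysed here.

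An imprinted gene is expressed from the copy inherited from 1 parent, because DNA methylation laid down in the egg or sperm marks the other copy at a control region. Imprinted genes lie in clusters in which paternally and maternally expressed genes share such a region, and a long non-coding RNA of the cluster often takes part in silencing its neighbours. Many of them act in the placenta and in fetal growth, and loss of imprinting occurs in tumors, leukemias among them. Gene counts do not separate the parental copies, so the values below are sums over both.

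Of the 10 genes, PEG10 and H19 were higher after FT671, and none of the genes tested was lower. CDKN1C, KCNQ1OT1, MEST and NAP1L5 were measured and their changes did not pass the test. SGCE was at or under the limit of detection in all 6 libraries, and IGF2, PEG3 and SNRPN had 0 counts in every library. PEG10 stood at 0.46 ± 0.159 CPM with DMSO and 4.86 ± 0.667 CPM with FT671, and H19 at 14.4 ± 0.204 and 44.1 ± 4.28 CPM (mean ± SD, n = 3 each). CPM are counts scaled to a library total of 1000000, with library sizes adjusted by TMM, the scaling of edgeR.

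The libraries held 4555220 to 14250500 counts, and the smallest expression taken as detectable, 3 counts in a library, was 0.208 to 0.666 CPM. Of 13895 genes that passed the filter on low counts, 23.6% were called higher after FT671 and 26.5% lower at an adjusted p of 0.05 by edgeR's quasi-likelihood test, and 1.79% and 4.13% at 1e-05, the threshold of the study. The median log2 fold change of all genes was -0.01. Of 9 K562 markers (globins, erythroid receptors and factors), 8 had a mean of at least 1 CPM, 3 of 8 tested were called higher and 5 lower, and their summed level was 1250 to 1290 CPM with DMSO and 1120 to 1160 CPM with FT671. Of 8 markers of other cell types, MS4A1 (B cells) and KRT5 (basal epithelium) were at 0, 4 had a mean of at least 1 CPM and 1 of 4 tested was called higher (EPCAM), and their sum was 82.4 to 87.4 CPM with DMSO and 107 to 111 CPM with FT671. Their part in the results below was not tested.

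**Figure D1:**
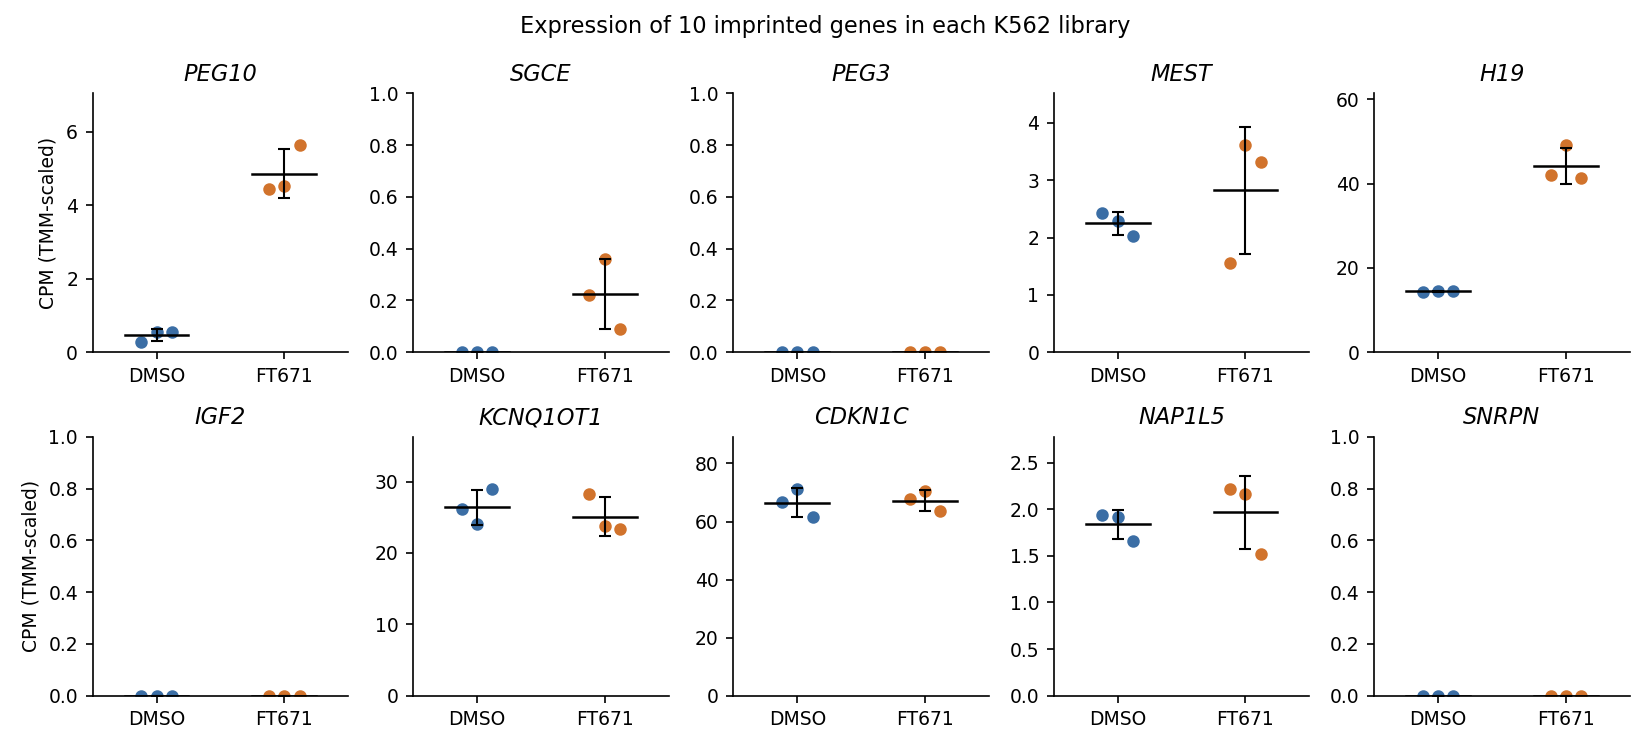
Expression of the 10 imprinted genes in CPM with TMM-scaled library sizes (y axis, linear, from 0) in the 3 DMSO and the 3 FT671 libraries. Points are libraries, horizontal lines are means and error bars are SDs. The FT671 points lie above all DMSO points for PEG10 and H19, mix with them for CDKN1C, KCNQ1OT1, MEST and NAP1L5, and stay at 0 for IGF2, PEG3 and SNRPN. For SGCE the DMSO points are at 0 and the FT671 points at 0.222, 0.361 and 0.0894 CPM, all under the limit of detection.

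PEG10 is a gag-pol gene derived from a retrotransposon, expressed from the paternal copy and needed for the placenta. It lies on chromosome 7 at 94656325 to 94669695 on the plus strand (GRCh38, GENCODE release 44). It had 4, 6 and 3 counts in DMSO replicates 1, 2 and 3, and 20, 25 and 63 counts in FT671 replicates 1, 2 and 3. In CPM these were 0.277, 0.55 and 0.555 with DMSO and 4.44, 4.51 and 5.63 with FT671. The DMSO values lay near the limit of detection, every FT671 library was above every DMSO library, and the groups did not overlap. The fitted log2 fold change was 3.51 (SE 0.336), and it was 3.14 without DMSO replicate 1, the lowest value when 1 library was left out. Summed over the libraries, 13 counts with DMSO stood against 108 with FT671. Because this rise selected the gene, it is given without a test, and PEG10 passed the filter on low counts only through the FT671 libraries. In bulk RNA, more cells with the transcript and more transcript per cell cannot be told apart.

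SGCE, which encodes ε-sarcoglycan of the membrane complex that binds dystrophin, starts head to head with PEG10 on the opposite strand (chromosome 7, 94524204 to 94656572), and both are paternally expressed from a shared promoter region. The annotated genes overlap by 248 bases at their starts. SGCE had 0 counts in each DMSO library and 1, 2 and 1 counts in FT671 replicates 1, 2 and 3. All 6 values were at or under the 3 counts taken as detectable, so no fold change is given and a rise of SGCE was not detectable at this depth. Its mean was 0 CPM with DMSO and 0.224 ± 0.136 CPM with FT671, and the exact two-sided permutation test gave p = 0.1, the smallest that 3 against 3 libraries allow. Whether SGCE followed PEG10 therefore cannot be read from these counts.

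The other genes of the 7q21 cluster were measured at the same time. Of 15 listed genes beside PEG10, 5 had 0 counts in all libraries, 3 passed the filter, 1 was called higher (33.3%, against 23.6% of all genes tested) and 0 lower by edgeR, with the same counts at an unadjusted p of 0.05 and by DESeq2. BET1, a SNARE protein of transport from the endoplasmic reticulum to the Golgi, was the one called. It stood at 26, 28.7 and 37.7 CPM in the DMSO libraries and at 35.8, 43.1 and 41.1 CPM in the FT671 libraries, so that the groups overlapped. Its log2 fold change was 0.42 (SE 0.134, edgeR adjusted p = 0.0187). The call was lost without DMSO replicate 1 (adjusted p = 0.114), DMSO replicate 2 (0.059), FT671 replicate 2 (0.0769) or FT671 replicate 3 (0.0775). CASD1, a sialic acid O-acetyltransferase whose gene overlaps SGCE by 32816 bases on the opposite strand, had a log2 fold change of 0.16 (SE 0.333, edgeR adjusted p = 0.715). PON2, a paraoxonase, had -0.35 (SE 0.295, edgeR adjusted p = 0.343). Because PEG10 was chosen by its rise, the size of its change is not compared with those of BET1, CASD1 and PON2.

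The remaining 12 genes of the cluster, SGCE among them, did not pass the filter. COL1A2, a collagen chain, had 1.14 CPM on average with DMSO and 0.76 with FT671, DYNC1I1, a dynein chain, had 0.866 and 0.608, PDK4, a pyruvate dehydrogenase kinase, had 0.362 and 0.0601, and GNGT1, a G protein subunit, had 0.222 and 0.15. CALCR, the calcitonin receptor, had 0.0536 and 0.074 CPM and TFPI2, a protease inhibitor, 0.0767 and 0. GNG11, PPP1R9A, PON1, PON3 and ASB4 were at 0 in every library. In each of COL1A2, DYNC1I1, PDK4, GNGT1 and TFPI2 the FT671 mean was below the DMSO mean, but at these levels no difference was tested.

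**Figure D2:**
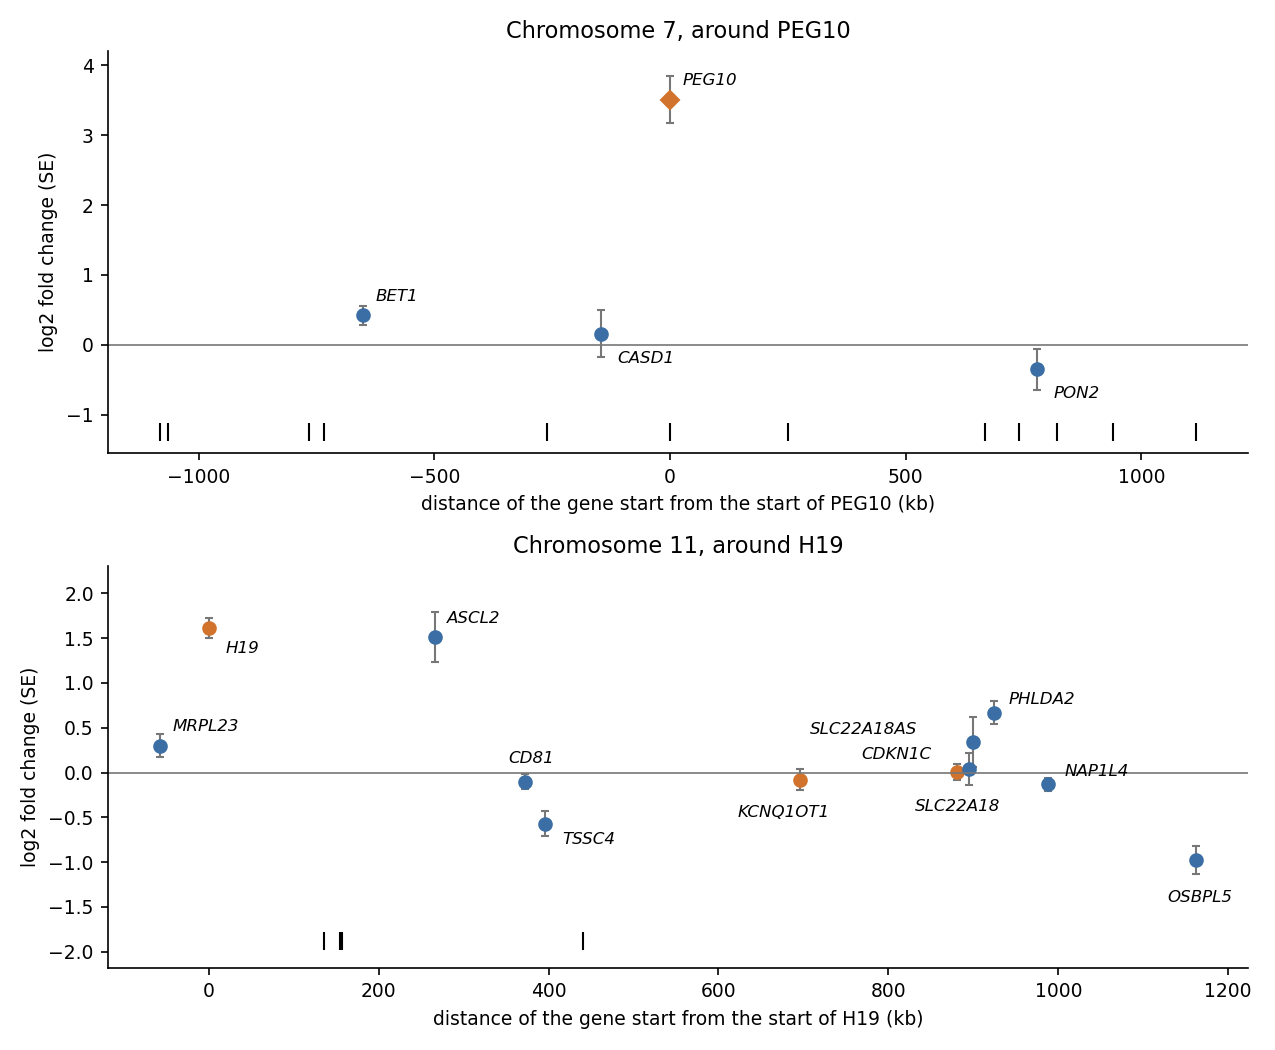
Log2 fold change of FT671 over DMSO with its SE (y axis) for genes tested around PEG10 on chromosome 7 and around H19 on chromosome 11, by distance of the gene start in kb (x axis). Orange symbols are listed imprinted genes, the diamond is PEG10 (not tested), blue symbols are neighbours, and ticks at the bottom are genes that did not pass the filter. PEG10 is at 3.51, which is not compared with its neighbours because PEG10 was chosen by its rise. The neighbours of PEG10 that passed the filter lie between -0.35 and 0.42. On chromosome 11 values run from -0.98 (OSBPL5) to 1.61 (H19).

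H19 is a maternally expressed long non-coding RNA that shares enhancers with IGF2 and is silenced in somatic cells on the paternal copy by methylation upstream of it. It lies on chromosome 11 at 1995166 to 2004552 on the minus strand. Its exon holds the hairpin of miR-675, and because H19 changed the mature sequences are given from RefSeq (GRCh38.p14), with the seed, bases 2 to 8, in capitals.
hsa-miR-675-5p: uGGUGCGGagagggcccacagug
hsa-miR-675-3p: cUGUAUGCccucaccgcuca
The microRNA itself was not measured, and the hairpin entry MIR675 (chromosome 11, 1996759 to 1996831, minus strand) lies within H19 on the same strand and had 0 counts in every library.

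Promoter windows of 300 bases around a RefSeq start, most of them upstream, were given for 4 of the 10 genes, H19, MEST, NAP1L5 and SNRPN. The printed windows of H19 and MEST lie inside the GENCODE genes, which start at 2004552 (minus strand) and 130486171 (plus strand). They cover starts within the genes, and for H19 no window at its GENCODE start was given. The windows of H19, which rose, and of NAP1L5 and MEST, whose changes did not pass the test, are printed 5′ to 3′ with CpG, the dinucleotide that carries the imprint, in capitals.
H19, chr11:2001217-2001516, minus strand: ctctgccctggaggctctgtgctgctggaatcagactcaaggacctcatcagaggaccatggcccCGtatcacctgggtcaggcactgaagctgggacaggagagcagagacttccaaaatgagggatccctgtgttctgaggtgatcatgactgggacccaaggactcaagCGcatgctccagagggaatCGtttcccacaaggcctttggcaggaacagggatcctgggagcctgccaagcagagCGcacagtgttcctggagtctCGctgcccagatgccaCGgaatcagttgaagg
NAP1L5, chr4:88697780-88698079, minus strand: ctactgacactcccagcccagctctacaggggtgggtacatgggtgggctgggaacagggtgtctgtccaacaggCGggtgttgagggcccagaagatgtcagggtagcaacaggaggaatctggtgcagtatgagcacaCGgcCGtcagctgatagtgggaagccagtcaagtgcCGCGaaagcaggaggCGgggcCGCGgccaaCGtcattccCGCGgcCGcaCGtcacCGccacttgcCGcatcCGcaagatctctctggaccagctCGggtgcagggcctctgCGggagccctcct
MEST, chr7:130491835-130492134, plus strand: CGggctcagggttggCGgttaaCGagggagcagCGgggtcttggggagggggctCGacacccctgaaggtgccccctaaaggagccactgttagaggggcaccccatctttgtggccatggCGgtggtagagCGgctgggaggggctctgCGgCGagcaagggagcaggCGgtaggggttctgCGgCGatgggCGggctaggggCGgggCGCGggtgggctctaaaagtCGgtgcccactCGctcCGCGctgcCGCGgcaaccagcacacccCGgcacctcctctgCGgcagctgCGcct
For MEST, which has several windows, the one with most CpG is shown. The H19 window held 6 CpG, the NAP1L5 window 18 and the MEST window 25, and the median of 35097 RefSeq promoter windows was 14. TGCCGC, the motif that ZFP57 binds when methylated, was searched on both strands: it was in 16.7% of all windows, with 0 matches in the H19 window, 2 in that of NAP1L5 and 3 in that of MEST. The other MEST windows had 0 to 2 matches, as had the SNRPN windows, which are not printed. The motif itself holds a CpG, so choosing the MEST window by CpG favours matches, and the windows are not compared. Methylation was not measured, and a match is only a match of letters.

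H19 had 205, 157 and 79 counts in DMSO replicates 1, 2 and 3, and 189, 272 and 463 counts in FT671 replicates 1, 2 and 3. In CPM these were 14.2, 14.4 and 14.6 CPM with DMSO and 42, 49.1 and 41.4 CPM with FT671. The DMSO libraries agree closely with each other, all FT671 libraries were higher and the groups did not overlap. H19 rose by a log2 fold change of 1.61 (SE 0.112, 95% interval 1.37 to 1.85, edgeR adjusted p = 1.2e-07), a fold of 3.06. The rise stayed between 1.54 and 1.67 over all 12 alternative fits that included the gene, with adjusted p from 1.84e-31 to 7.3e-06. It also passed 1e-05.

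CDKN1C is maternally expressed and encodes p57, an inhibitor of cyclin-dependent kinases. In DMSO replicates 1, 2 and 3 it had 66.8, 71.3 and 61.4 CPM, and in FT671 replicates 1, 2 and 3 it had 67.7, 70.5 and 63.5 CPM. The groups overlapped almost fully. Its log2 fold change was 0.0059 (SE 0.0889, edgeR adjusted p = 0.962), with a 95% interval of -0.18 to 0.20, or 0.88 to 1.15 as a fold. A change of the size seen for H19 lay far outside that interval.

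KCNQ1OT1 is the paternally expressed antisense RNA whose transcription silences CDKN1C and its neighbours on the same chromosome copy. It had 26.2, 24.1 and 29 CPM in the DMSO libraries and 28.2, 23.8 and 23.3 CPM in the FT671 libraries, and the groups overlapped. Its log2 fold change was -0.079 (SE 0.118, 95% interval -0.33 to 0.17, edgeR adjusted p = 0.603). KCNQ1, the potassium channel gene within which it lies on the opposite strand, had at most 2 counts in any library.

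MEST, a paternally expressed gene that encodes a protein of the α/β-hydrolase fold, had 2.42, 2.29 and 2.03 CPM in the DMSO libraries and 1.55, 3.61 and 3.31 CPM in the FT671 libraries. FT671 replicate 1 was below and the other two were above all DMSO libraries. The log2 fold change was 0.37 (SE 0.291, 95% interval -0.26 to 0.99, edgeR adjusted p = 0.31), so a fold up to 1.99 was within the interval. NAP1L5, a paternally expressed gene of the nucleosome assembly protein family, had 1.94, 1.92 and 1.66 CPM in the DMSO libraries and 2.22, 2.16 and 1.52 CPM in the FT671 libraries. Its groups overlapped too, with a log2 fold change of -0.011 (SE 0.292, 95% interval -0.64 to 0.62, edgeR adjusted p = 0.979). Both genes had at most 37 counts in any library, and their intervals are the widest of the 5 tested.

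IGF2, the paternally expressed fetal growth factor, PEG3, a zinc finger protein, and SNRPN, a spliceosomal Sm protein, had 0 counts in all 6 libraries. At 3 counts a library this allows up to 0.208 CPM where depth was greatest and up to 0.666 CPM where it was least, for counting error only. Each shares exonic bases with another gene on the same strand: IGF2 with INS-IGF2, PEG3 with ZIM2 and SNRPN with SNURF, and reads in shared bases may have been assigned to neither. INS-IGF2, ZIM2 and SNURF also had 0 counts in every library. For these 3 genes a count of 0 therefore limits only reads that a counter could assign to 1 gene.

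Of the 9 genes beside PEG10, 5 passed the filter, 1 was called higher (20%, against 23.6% of all genes tested), 0 were called lower, and 4 did not pass. By edgeR at an unadjusted p of 0.05 and by DESeq2 the counts were also 1 and 0. Their median log2 fold change was 0.0059, beside -0.01 for all genes tested. One call in 5 genes is near the background, and the count of the list does not set it apart.

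The genes also differed in level. As CPM per kb of exon, CDKN1C had the highest DMSO level (26.8 ± 2, SD, n = 3), followed among genes that passed the filter by H19 (4.16 ± 0.0589), NAP1L5 (0.961 ± 0.0807), MEST (0.472 ± 0.0416), KCNQ1OT1 (0.286 ± 0.0267) and PEG10 (0.0688 ± 0.0237). No neighbours in this order overlapped within 1 SD. After FT671, CDKN1C (27.1 ± 1.44) and H19 (12.8 ± 1.24) stayed first and second, NAP1L5 was at 1.03 ± 0.203, PEG10 at 0.727 ± 0.0998, MEST at 0.592 ± 0.233 and KCNQ1OT1 at 0.271 ± 0.029. PEG10 thus moved from last of the 6 genes that passed the filter to a level at which its libraries overlapped those of NAP1L5 and of MEST. Even then its level per length was below that of H19 and CDKN1C.

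**Figure D3:**
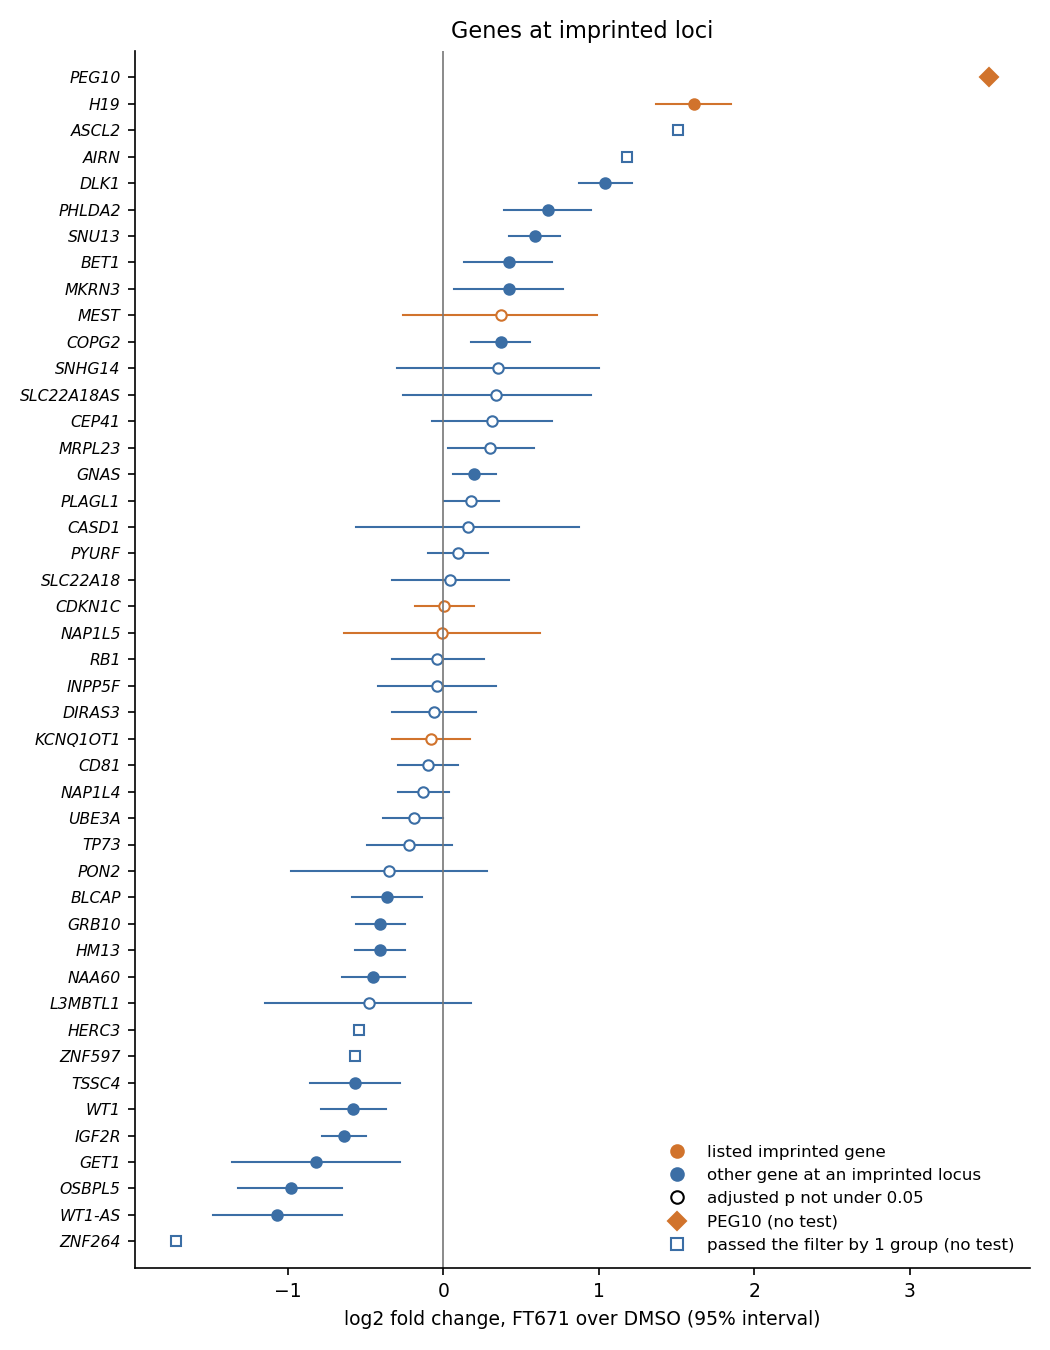
Log2 fold change of FT671 over DMSO with its 95% interval (x axis) for each gene at an imprinted locus that passed the filter (y axis, sorted). Orange marks the listed imprinted genes, blue the other genes, filled circles an edgeR adjusted p under 0.05, and the diamond (PEG10) and open squares genes that passed the filter through 1 group, drawn without interval. Filled circles, 8 higher and 10 lower, lie on both sides of 0.

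The question was widened to 98 genes at imprinted loci other than PEG10. They comprise the 9 other listed genes, the 7q21 cluster, neighbours at the other loci and further imprinted genes. Of these, 25 had 0 counts in every library and 44 passed the filter. By edgeR 10 were called higher (22.7%, against 23.6% of all genes) and 11 lower (25%, against 26.5%), and 23 did not pass. Of the 44, 5 passed the filter only through the group where they were higher, ASCL2 and AIRN through FT671 and ZNF264, HERC3 and ZNF597 through DMSO, since fewer than 3 libraries of the other group reached its 1.21 CPM. Without these genes 8 were called higher and 10 lower. At 1e-05, 2 of the 44 were called higher, H19 and DLK1, against 1.79% of all genes tested. In the other direction 1 of the 44 was called lower, IGF2R, against 4.13%. Their median log2 fold change was -0.039, beside -0.01 for all genes. In 12 genes every FT671 library was above every DMSO library (26.8% of all genes tested) and in 15 every one was below (30.3%). Without FT671 replicate 3, the deepest FT671 library, the number called higher was 6. Genes at imprinted loci thus moved in both directions at about the rates of all genes.

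Around H19 and CDKN1C at 11p15, 9 neighbours passed the filter. By edgeR 2 were called higher (22.2%, against 23.6% of all genes), ASCL2 and PHLDA2, and 2 lower (22.2%, against 26.5%). ASCL2 passed the filter only through the group where it was higher, so its call is not read and the share higher is not compared. ASCL2, a transcription factor of trophoblast, had 1.18, 1.74 and 1.11 CPM in the DMSO libraries and 3.55, 3.61 and 4.29 CPM in the FT671 libraries, without overlap. Its log2 fold change was 1.51 (SE 0.277), given without a test because ASCL2 passed the filter only through the FT671 libraries. PHLDA2, which restrains placental growth, went from 25.6, 27.6 and 18.9 to 37.8, 42.4 and 37.4 CPM, also without overlap (log2 fold change 0.67, SE 0.129, edgeR adjusted p = 0.000682). TSSC4, a factor of spliceosomal snRNP assembly, fell by 0.57 on the log2 scale (SE 0.137, edgeR adjusted p = 0.00332). OSBPL5, a lipid transfer protein, fell by 0.98 (SE 0.157, edgeR adjusted p = 0.000156). The other 5 did not pass, with log2 fold changes of 0.34 for SLC22A18AS, 0.30 for MRPL23, a mitochondrial ribosomal protein, 0.04 for SLC22A18, a membrane transporter, -0.10 for the tetraspanin CD81 and -0.13 for NAP1L4, of the nucleosome assembly protein family. The neighbours thus moved in both directions, and no change was tested against that of CDKN1C or H19.

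Among neighbours at all loci but 7q21, 17 of 34 passed the filter. ASCL2, ZNF264 and HERC3 did so only through the group where they were higher, so the shares below, which include them, are not compared. By edgeR 4 were called higher (COPG2 and MKRN3 beside the pair at 11p15), which is 23.5% against 23.6% of all genes, and 3 lower (ZNF264 beside the pair at 11p15), which is 17.6% against 26.5%. Their median was 0.095. COPG2, a coatomer subunit whose gene overlaps the end of MEST by 228 bases on the opposite strand, rose by a log2 fold change of 0.37 (SE 0.0888, edgeR adjusted p = 0.00349). MKRN3, a ubiquitin ligase near SNRPN, had a log2 fold change of 0.42 (SE 0.163, edgeR adjusted p = 0.046), and this call was lost in 8 of 12 alternatives. Among those were all that left out a library except DMSO replicate 1, with adjusted p of 0.116 (without DMSO replicate 2), 0.0837 (DMSO replicate 3), 0.126 (FT671 replicate 1), 0.0875 (FT671 replicate 2) and 0.0627 (FT671 replicate 3). ZNF264, a zinc finger gene near PEG3, had a log2 fold change of -1.72 (SE 0.357), and HERC3, a ubiquitin ligase gene within which NAP1L5 lies on the opposite strand, had -0.54 (SE 0.309), both given without a test because they passed the filter only through the DMSO libraries. SNHG14, the snoRNA host transcript downstream of SNRPN, had a log2 fold change of 0.35 (SE 0.303, edgeR adjusted p = 0.359). Among neighbours that passed the filter through both groups, COPG2, MKRN3 and PHLDA2 were called higher and TSSC4 and OSBPL5 lower, with no common direction.

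Of 41 further imprinted genes, 19 passed the filter. By edgeR 4 were called higher (21.1%, against 23.6% of all genes) and 8 lower (42.1%, against 26.5%), with a median of -0.36. AIRN, among those called higher, and ZNF597, not called, passed the filter only through the group where they were higher. The shares, which include them, are therefore not compared. DLK1, a paternally expressed membrane protein related to Notch ligands, had 442, 443 and 372 CPM in the DMSO libraries and 912, 838 and 843 CPM in the FT671 libraries, without overlap. Its log2 fold change was 1.04 (SE 0.0799, edgeR adjusted p = 2.34e-07). MEG3, MEG8 and RTL1, from the same cluster, did not pass the filter, with means of at most 0.346 CPM in either group. IGF2R, the receptor that takes up and clears IGF2, had 434, 422 and 439 CPM with DMSO and 280, 277 and 272 CPM with FT671. It fell by 0.64 (SE 0.0647, edgeR adjusted p = 2.81e-06). AIRN, the non-coding RNA that runs antisense within IGF2R, had 12, 8 and 4 counts with DMSO and 6, 11 and 21 counts with FT671, which in CPM were 0.831, 0.733 and 0.739 against 1.33, 1.98 and 1.88 CPM. Its log2 fold change was 1.18 (SE 0.345), given without a test because AIRN passed the filter only through the FT671 libraries, and it could not be fitted without FT671 replicate 3.

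SNU13, a protein of the U4 snRNP and of box C/D snoRNPs, rose by a log2 fold change of 0.59 (edgeR adjusted p = 3.06e-05). WT1-AS fell by 1.07 (edgeR adjusted p = 0.000409), and WT1, the zinc finger factor that starts beside it, fell by 0.58 (edgeR adjusted p = 0.000233). GET1, which inserts tail-anchored proteins into the endoplasmic reticulum, had -0.82 (edgeR adjusted p = 0.0142), a call lost without FT671 replicate 2 (adjusted p = 0.0567) or FT671 replicate 3 (0.0855). GRB10, an adaptor that dampens insulin signalling, fell by 0.41 (edgeR adjusted p = 0.000471), with 131, 129 and 138 CPM against 105, 99.6 and 96.2 CPM.

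**Figure D4:**
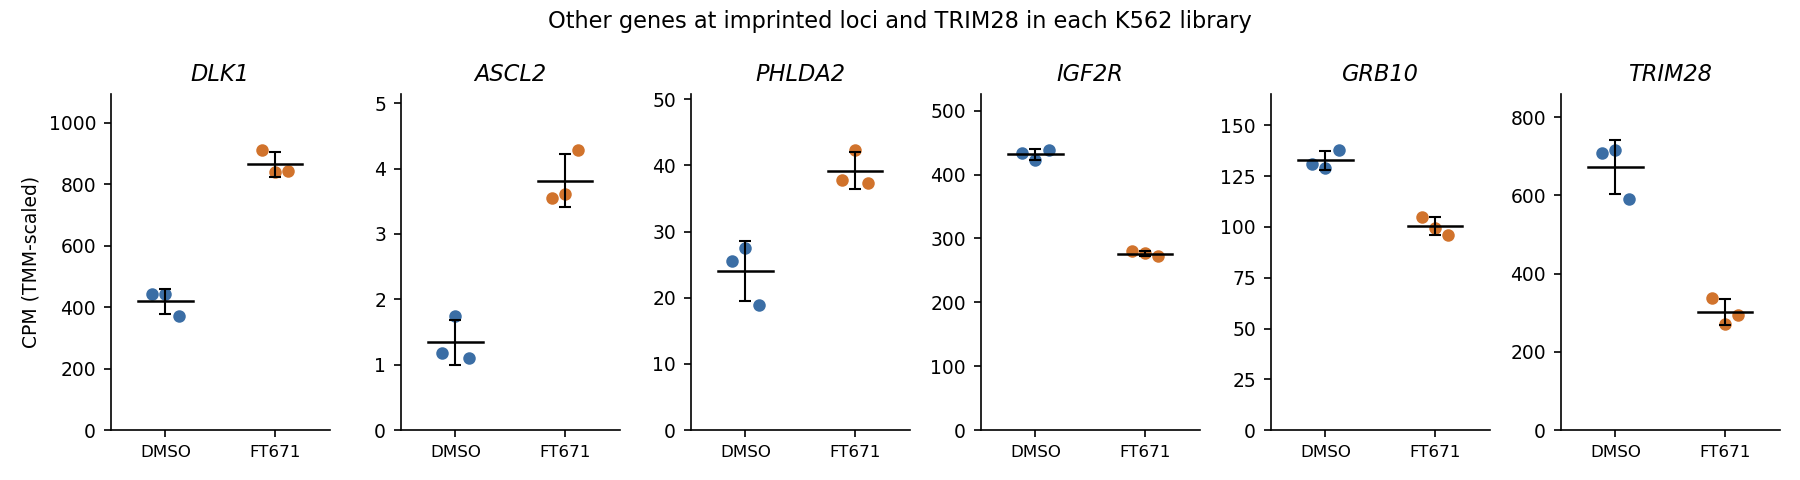
Expression in CPM with TMM-scaled library sizes (y axis, linear, from 0) of 5 genes at imprinted loci and of TRIM28 in each library, with points for libraries, lines for means and bars for SDs. DLK1, ASCL2 and PHLDA2 are higher in all 3 FT671 libraries, and IGF2R, GRB10 and TRIM28 are lower, with no overlap between groups.

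The factors that keep imprints through cell division were also counted. Of 11 listed, 8 were tested, 2 were called higher (25%, against 23.6% of all genes) and 4 lower (50%, against 26.5%), and the median change was -0.19 on the log2 scale. TRIM28, the corepressor that zinc finger proteins bring to imprinted control regions, had 708, 717 and 592 CPM with DMSO and 337, 271 and 295 CPM with FT671. The groups did not overlap, and TRIM28 fell by 1.16 (SE 0.0938, edgeR adjusted p = 3.73e-07). ZNF445, a zinc finger protein that recruits it, fell by 0.55 (edgeR adjusted p = 0.0001), CTCF, which binds the unmethylated control region of H19, by 0.43 (edgeR adjusted p = 0.00115), and SMCHD1, a chromatin protein of the inactive X and of imprinted genes, by 0.40 (edgeR adjusted p = 0.0221). The SMCHD1 call was lost without FT671 replicate 1 (adjusted p = 0.0732) or FT671 replicate 2 (0.0704). SMCHD1 had 216 CPM in DMSO replicate 3 against 149 and 135 CPM in DMSO replicates 1 and 2. Without DMSO replicate 3 its log2 fold change was -0.19. UHRF1, which guides the maintenance methyltransferase to new DNA, rose by 0.33 (edgeR adjusted p = 0.00878). DNMT1, that methyltransferase, had 0.13 (SE 0.0641, edgeR adjusted p = 0.0982, but 0.0373 without DMSO replicate 3), and ZFP57, the other zinc finger protein of imprints, was at 0.0462 and 0.074 CPM on average. ARID4B had 0.28 (edgeR adjusted p = 0.0339), and leaving out any library but DMSO replicate 3 lost that call, with adjusted p of 0.0576 (DMSO replicate 1), 0.101 (DMSO replicate 2), 0.081 (FT671 replicate 1), 0.0538 (FT671 replicate 2) and 0.101 (FT671 replicate 3).

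PEG10 belongs to a group of gag-derived genes, the RTL and PNMA genes, of which 23 were listed. Of these, 11 were tested, 2 were called higher (18.2%, against 23.6% of all genes) and 4 lower (36.4%, against 26.5%), with a median of -0.35. PNMA1 fell by 1.26 (edgeR adjusted p = 3.17e-06), RTL6 by 1.15 (edgeR adjusted p = 1.33e-05) and RTL8A by 0.98 (edgeR adjusted p = 2.11e-05). RTL8A and RTL8C are near-identical copies, so their split of reads is uncertain, and RTL8C fell by 0.41 (edgeR adjusted p = 0.00651). RTL10 rose by 0.31 (edgeR adjusted p = 0.00371). CCDC8 had 0.45 (edgeR adjusted p = 0.0364), lost without FT671 replicate 1 (adjusted p = 0.137) or FT671 replicate 3 (0.0795). Because PEG10 was chosen by its rise, the size of its change is not compared with those of its relatives.

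Genes of the IGF2 axis gave 9 tested of 15, with 0 called higher (against 23.6% of all genes), 3 lower (33.3%, against 26.5%) and a median of -0.10. At an unadjusted p of 0.05 edgeR gave 1 higher and 3 lower, and DESeq2 gave 0 and 3. IRS1, an adaptor of the insulin and IGF1 receptors, is among the 3 but passed the filter only through the DMSO libraries. Its log2 fold change of -1.40 (SE 0.335) is therefore given without a test, and the shares, which include IRS1, are not compared. IGF2BP3, an RNA-binding protein of fetal tissue, fell by 0.70 (SE 0.0905, edgeR adjusted p = 2.63e-05), and IGF2R fell as given above. IGF1R, the receptor that IGF2 signals through, had 0.092 (SE 0.116, edgeR adjusted p = 0.533).

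**Figure D5:**
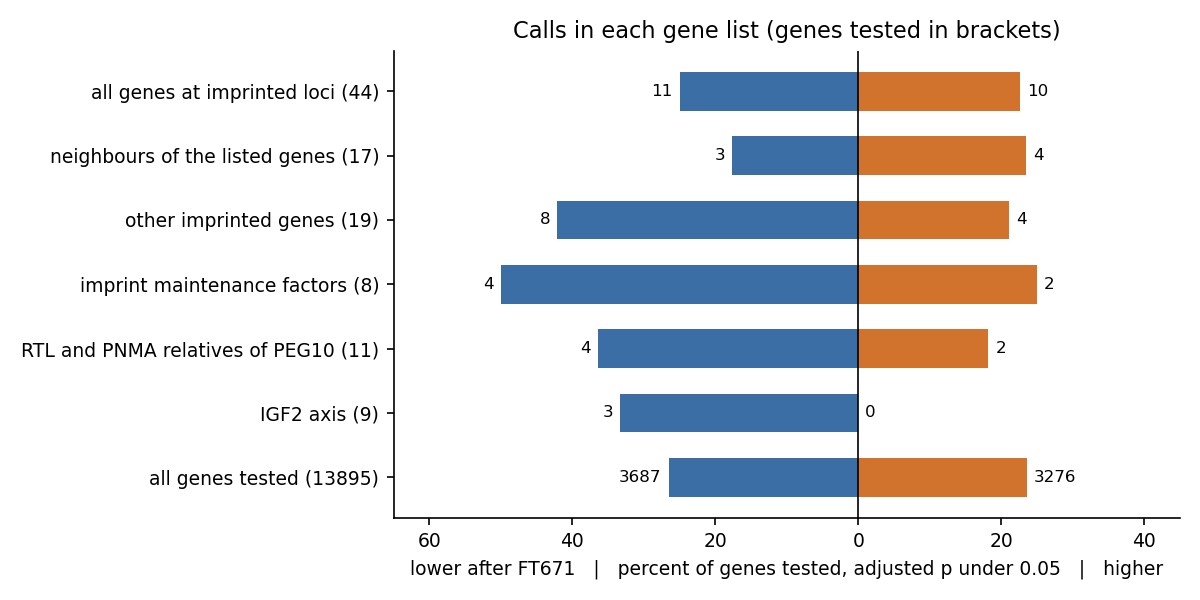
Percent of tested genes called lower (left) and higher (right) after FT671 at an edgeR adjusted p under 0.05 in each list (y axis, with the number tested in brackets). Numbers at the bars are genes. All genes at imprinted loci gave 10 higher and 11 lower of 44, and the other lists hold 8 to 19 genes. The bars include genes that passed the filter only through 1 group, ASCL2, AIRN, ZNF264 and IRS1 among those called. Bars with such genes are therefore not compared.

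The genes whose profile over the 6 libraries was most like that of PEG10 were RCN3, ENSG00000280414, SHANK1, CAMKV and ENSG00000279766. Likeness was the root mean square difference of centred log2 CPM, which was 0.2 for RCN3, 0.268 for ENSG00000280414, 0.275 for SHANK1, 0.284 for CAMKV and 0.33 for ENSG00000279766. RCN3, a calcium-binding protein of the secretory pathway, had a mean of 2.98 CPM with DMSO and 23.3 CPM with FT671, SHANK1, a postsynaptic scaffold, 0.76 and 5.35, and CAMKV, a kinase-like protein of neurons, 0.284 and 3.45. None of these genes is on the lists of imprinted loci. PEG10 was chosen by its rise, so genes picked for a like profile rise too, and their changes are given without a test.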

How the data were processed

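RNA-seq libraries of K562 cells treated with DMSO or FT671 (3 each, grouped by the treatment label) were used. The authors deposited 1 unnormalized read count per gene and library. According to the study and the submitters' processing notes, ribosomal RNA was depleted, reads were aligned to hg38 with STAR, and the authors tested with DESeq2. The STAR version, annotation release and strand setting are not given in the sources used here. Of 770 genes lying wholly under exons of the opposite strand, 491 had counts, which counting without strand would leave at 0. Of the 60609 gene IDs, 60295 matched GENCODE release 44, and the other 314 held 0.0609% of the counts.

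Differences between FT671 and DMSO were tested by the quasi-likelihood method of edgeR 4.0.16 (R 4.3.3) after filterByExpr and TMM scaling, without covariates, with Benjamini-Hochberg adjustment over 13895 genes. A call is an adjusted p under 0.05, with 1e-05, the study's threshold, beside it. The script was tested on simulated data. Alternatives were DESeq2 1.42.0 and its size factors, library totals alone, other filters, a replicate block and each library left out. The genes and lists were chosen with earlier results of these data known. By rule, all listed imprinted genes and the 7q21 cluster are given, of each other list up to 3 genes with the largest rise and 3 with the largest fall among those called, any gene overlapping a listed gene, and the 5 genes most like PEG10. Genes with few counts that overlap a listed gene are given only where a result touches them. WT1, GRB10, SMCHD1, RTL8C, DNMT1, ZFP57, IGF1R, MEG3, MEG8, RTL1, EPCAM, ZNF597 and the 11p15 neighbours that did not pass, which fall outside the rule, were named after their values were seen.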

Additional observations from a re-analysis of the deposited data

How the results depend on the processing

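H19 was the 1 listed gene beside PEG10 called higher, and 0 were called lower, under all 13 alternatives. At an adjusted p of 1e-05, edgeR called 2 genes at imprinted loci higher and 1 lower, and 249 and 574 of all genes. Leaving out 1 library at a time gave 6 (without FT671 replicate 3) to 10 genes at imprinted loci higher and 10 to 13 lower, and 2522 to 3830 of all genes higher and 2972 to 4100 lower. Whether the replicate numbers pair the libraries was not settled. The deviations of same-numbered libraries correlated at r = 0.115, -0.0605 and 0.14, and 2 of the 3 FT671 libraries did not correlate best with their own number. With 3 libraries in each group such values cannot exclude pairing. The spread between libraries fitted by edgeR (its biological coefficient of variation) was 0.0832 without and 0.0736 with the replicate block. The replicate block gave 10 and 11 calls at imprinted loci, 3374 and 3761 of all genes, and 1 and 0 of the listed genes beside PEG10.

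For single named genes that were fitted, 465 values kept direction and side of the threshold, 28 lost the call, 1 gained it (DNMT1 without DMSO replicate 3), 1 moved (PEG10, 3.14 without DMSO replicate 1) and 11 changed sign, all of them uncalled before and after. CDKN1C became -0.027 on library totals alone, -0.034 with no filter, and -0.053 (without DMSO replicate 3) to 0.064 with 1 library left out, negative also without FT671 replicate 2 (-0.027). NAP1L5 became 0.0059 with DESeq2 size factors, 0.054 by DESeq2, 0.091 with the replicate block, 0.031 and 0.021 without DMSO replicates 1 and 2, and ran from -0.098 to 0.22 (without FT671 replicate 3) with 1 library left out. CASD1 ran from -0.08 (without DMSO replicate 1) to 0.45. The cause was not tested. SGCE has no fold change under any setting, since both groups were at or under the limit of detection, and its difference was 0.224 CPM, or 0.221 on library totals. Among the listed imprinted genes, PEG10, MEST and NAP1L5 could not be fitted with at least 10 counts in every library. SGCE, IGF2, PEG3 and SNRPN cannot be read below the limit of detection at this depth.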
